A study of Mus musculus with 2 samples.

Results

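The expression of 10 genes of the Nodal pathway was examined in 2 RNA-seq libraries of mouse embryonic stem (ES) cells. The genes were chosen by name, as the ligand Nodal, its co-receptor, its secreted antagonists, its receptors, its Smad proteins and the inhibitors of those Smads, and all 10 were found among the 14261 rows of the deposited table. One library came from cells that received doxycycline (dox) and the other from cells that received no agent, and both were labelled 36 h. Both were of the ES cells that the labels call TRE-ESCs, grown in dishes of low adsorption, so that the cells stayed in suspension, in N2B27 medium with LIF and 2i, a pair of kinase inhibitors that with LIF hold mouse ES cells in the naive state. The labels do not say whether the line is a single clone. The study is about c-Jun in ES cells kept in suspension, and Jun, its gene, stood at 3821 with dox and 55 without dox, 58.9-fold higher.

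With 1 library per group there were no replicates. No test could be made and no value below has a spread between cultures, so that "higher" and "lower" describe these 2 libraries only. The deposited whole numbers appear to be normalized values rather than read counts, because the quartiles, 14, 62 and 184, were identical with and without dox. The depth of sequencing is therefore unknown. Fold differences are ratios of values to each of which a pseudocount of 10 was added, so that the difference of a gene with low values is understated. A gene was examined for a difference where its larger value reached a floor of 50, as 8547 genes did, and it was called where the ratio was at least 2-fold in either direction. Because each library is a bulk sample, fewer cells that express a gene and less RNA of it per cell cannot be told apart. Of the ES cell markers, Pou5f1, which encodes Oct4, stood at 3572 with dox and 3230 without dox, and Dppa5a at 3818 with dox and 4342 without dox, while 3 of 6 markers, Nanog, Zfp42 and Utf1, were at least 2-fold lower with dox.

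Nodal is a secreted ligand of the TGF-beta superfamily. It binds a complex of type I and type II activin receptors together with the membrane-anchored co-receptor Cripto, encoded by Tdgf1, and the receptors then phosphorylate Smad2 and Smad3, which enter the nucleus with Smad4 and act with cofactors such as Foxh1. The pathway switches on its own ligand and its own inhibitors: Nodal, Lefty1, Lefty2, Smad7 and Skil are all known targets of it. In the early embryo the pathway maintains the epiblast and forms mesoderm and endoderm, and in naive ES cells it is active through Nodal that the cells make themselves.

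The ligand, the co-receptor and both antagonists were lower with dox, whereas the receptor, the effector Smads and the intracellular inhibitors that reached the floor were within 2-fold. Of the 9 genes at the floor 4 were at least 2-fold lower and 0 at least 2-fold higher. Over all 8547 genes at the floor, 5.49% were lower and 9.23% were higher by the same rule. The median log2 ratio of the 9 genes was -0.41, with 6 below and 3 above 0, against -0.08 over all genes at the floor. All 9 had a value above 50 in both libraries, the lowest being that of Lefty1 with dox. The remaining gene, Acvr2b, was under the floor in both. The plot of values in both libraries shows the 4 lower genes beside the others.

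**Figure D1:**
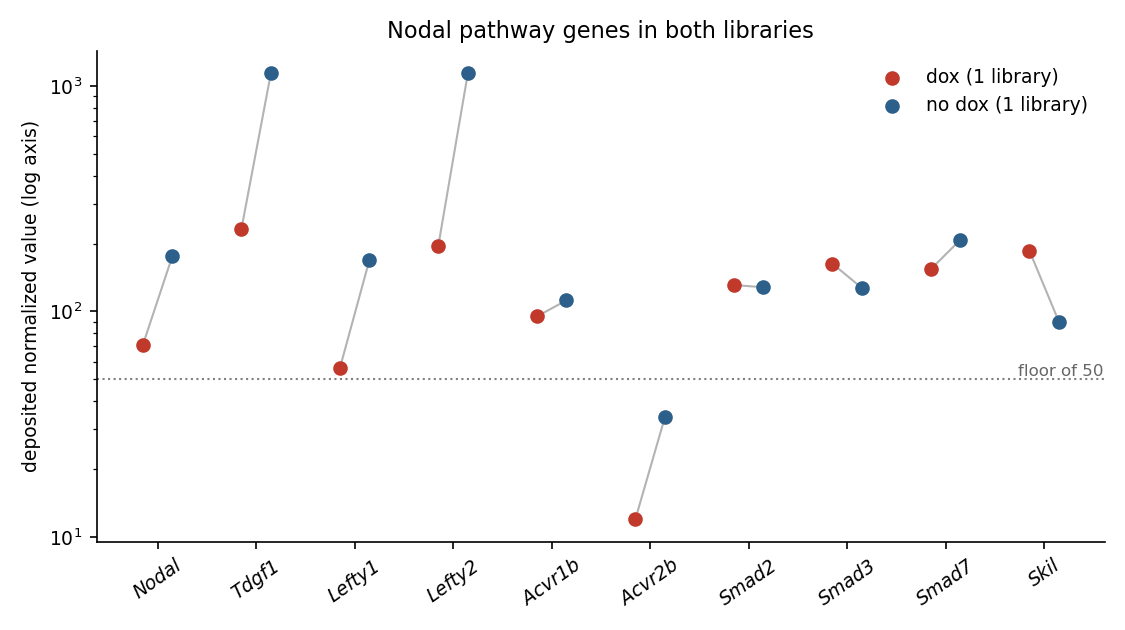
Deposited normalized values of the 10 Nodal pathway genes on a log axis, with dox (red, left of each pair) and without dox (blue, right), 1 library each; grey lines join the values of 1 gene and the dotted line is the floor of 50. Nodal, Tdgf1, Lefty1 and Lefty2 lie lower with dox, Acvr2b lies under the floor in both libraries, and Skil lies higher with dox at a ratio just under 2-fold.

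Nodal, the ligand, stood at 71 with dox and at 176 without dox. The value was 2.30-fold lower with dox, a log2 ratio of -1.20, which ranked it 263 from the lowest among 8547 genes. A pseudocount of 50 brought it to -0.90, which is under 2-fold. Nodal is encoded on the plus strand of chromosome 10, between 61417972 and 61425338 in GRCm38, the same assembly as mm10.

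Tdgf1, which encodes the co-receptor Cripto, a protein tethered to the cell surface through which Nodal engages its receptors, stood at 231 with dox and at 1137 without dox. It was 4.76-fold lower with dox, a log2 ratio of -2.25 and the rank 34 from the lowest. Tdgf1 is encoded on the minus strand of chromosome 9, between 110939603 and 110946158.

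The sequences before the starts of Nodal and Tdgf1 are shown because both genes were lower with dox, beside that of Smad3, the transducer in the same pathway that was within 2-fold. Each is the 250 bases before the gene start in RefSeq on GRCm38.p6, written 5′ to 3′ on the strand of the gene, and capitals mark CG dinucleotides. The stretch of Nodal is chr10:61417722-61417971 on the plus strand, that of Tdgf1 chr9:110946159-110946408 on the minus strand and that of Smad3 chr9:63757995-63758244 on the minus strand.
Nodal: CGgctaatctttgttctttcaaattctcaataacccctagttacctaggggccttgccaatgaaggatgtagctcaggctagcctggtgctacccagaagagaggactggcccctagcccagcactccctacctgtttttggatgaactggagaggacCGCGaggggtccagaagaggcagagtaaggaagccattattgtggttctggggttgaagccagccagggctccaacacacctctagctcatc
Tdgf1: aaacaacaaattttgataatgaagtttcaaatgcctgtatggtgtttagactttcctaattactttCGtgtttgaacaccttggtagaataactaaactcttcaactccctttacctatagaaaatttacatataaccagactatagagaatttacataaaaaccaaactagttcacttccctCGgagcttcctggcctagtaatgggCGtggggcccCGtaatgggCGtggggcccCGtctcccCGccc
Smad3: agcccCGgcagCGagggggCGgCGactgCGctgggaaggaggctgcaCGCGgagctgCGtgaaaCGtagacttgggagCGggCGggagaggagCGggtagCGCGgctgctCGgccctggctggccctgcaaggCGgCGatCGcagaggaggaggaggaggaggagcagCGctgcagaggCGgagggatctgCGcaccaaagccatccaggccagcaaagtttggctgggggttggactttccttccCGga

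Of the 10 genes 5 matched an entry of these promoter sequences, among them 2 of the 4 lower genes, Nodal and Tdgf1. These held fewer CG dinucleotides than the other 3. Nodal had 3 and Tdgf1 7, against 22 for Smad3, 24 for Acvr2b and 42 for Acvr1b, while the median over 32851 promoters was 6. The G+C content was 53.2% for Nodal and 42.0% for Tdgf1, against 69.2% for Smad3, 72.8% for Acvr2b and 78.8% for Acvr1b, with a median of 52.4% over all promoters. A set of 4 motifs was sought on both strands of each window of 300 bases, which adds the first 50 bases of the gene. TGTGGATT, which Foxh1 binds, stood in 0.855% of all promoters, GTCTAGAC, a Smad palindrome, in 0.213%, ATTTGCAT, the octamer of Oct4, in 1.74%, and TGANTCA, the AP-1 motif, in 7.81%. None of these letters stood in the 5 windows, which says nothing of sites elsewhere at these genes.

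Lefty1 and Lefty2 encode secreted antagonists that bind Nodal and its co-receptor and so limit the reach of the signal. Lefty2 stood at 196 with dox and at 1139 without dox, 5.58-fold lower with dox, and its log2 ratio of -2.48 was the lowest of the 10 genes, at rank 24 among 8547. Lefty1 stood at 56 with dox and at 169 without dox, 2.71-fold lower, with a log2 ratio of -1.44 and the rank 141. Both antagonists were thus lower with dox, Lefty2 by the larger ratio. Divided by the longest transcript in kilobases, Lefty2 was at 79.3 with dox and 461 without dox. Lefty1 was then at 34.6 with dox and 104 without dox. Whether the deposited values were already scaled by length is not known. Lefty2 had the higher value in both libraries with or without this division.

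The paralogs lie on the plus strand of chromosome 1, Lefty2 from 180893108 to 180899103 and Lefty1 from 180935022 to 180938400. Their coding sequences are of equal length, 1107 nt, and 91.9% of the aligned bases are identical, which matters for how reads were divided between them. The 60 coding bases in which they differ most are shown, with the 18 differing bases in capitals. They are bases 34 to 93 of the coding sequence, in exon 1, at chr1:180935143-180935202 for Lefty1 and chr1:180893217-180893276 for Lefty2, written 5′ to 3′.
Lefty1: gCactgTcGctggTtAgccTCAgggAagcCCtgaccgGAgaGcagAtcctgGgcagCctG
Lefty2: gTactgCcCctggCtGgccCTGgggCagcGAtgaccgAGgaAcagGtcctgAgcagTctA

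A read of 75 nt, the length of the sequencing kit, that lies where both genes are identical cannot be placed. Of 1546 windows of 75 nt in the longest Lefty1 transcript 11.2% also occur in Lefty2, and they make up 7.21% of the windows of Lefty2. Most windows of either gene are therefore its own. The 2 genes taken as a sum stood at 252 with dox and 1308 without dox, 5.03-fold lower. Because the values are normalized, how far this sum depends on the division of shared reads was not tested. In Tdgf1 8.67% of 1858 windows also occur in the processed pseudogene Tdgf1-ps1, which was not analysed here. The other 7 genes shared 0 windows with any other annotated gene.

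Among the genes at the floor, with clone-style and date-like symbols left out, Lefty2 and Tdgf1 were each other's nearest neighbour. Nearness was the Euclidean distance between the log2 values of 2 genes over the 2 libraries, after the pseudocount, and was 0.226 between them. The next gene for both was the zinc finger gene Zfp600, at 308 with dox and 1005 without dox, with a distance of 0.437 from Tdgf1 and 0.651 from Lefty2. The third was the DNA repair gene Apex1 for Tdgf1, at 313 with dox and 948 without dox, and Sfrp1, a secreted Wnt inhibitor gene, for Lefty2, at 226 with dox and 713 without dox. With only 2 libraries such nearness describes a value and a ratio and not a pattern over conditions.

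**Figure D2:**
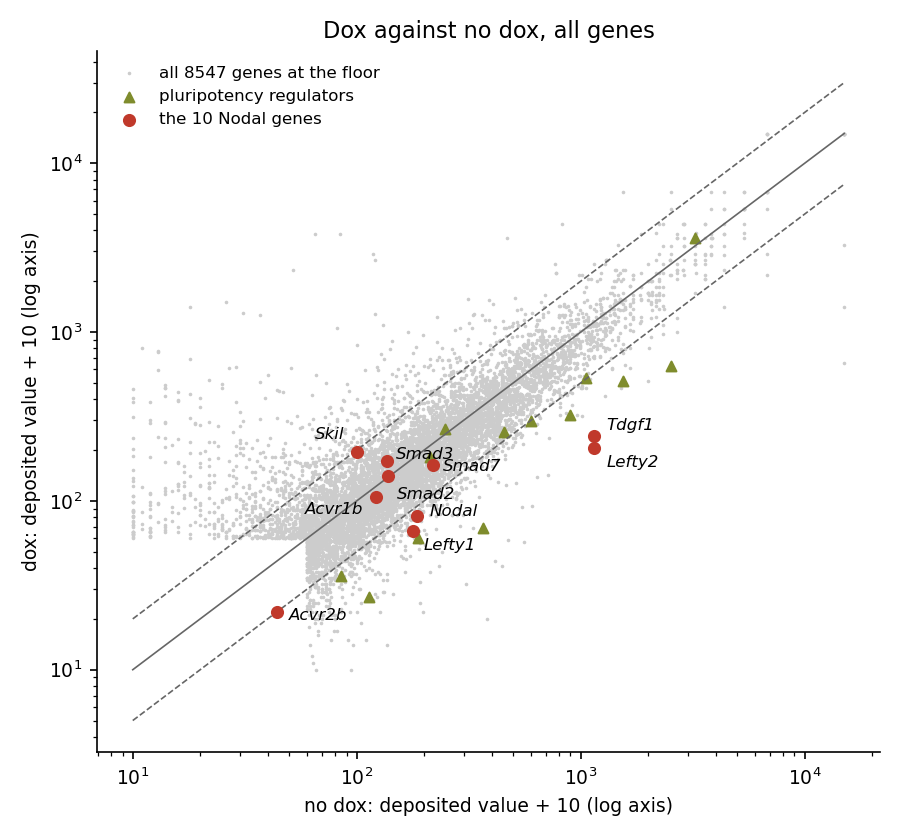
Values with dox (vertical) against values without dox (horizontal) on log axes after adding 10, for 8547 genes at the floor (grey), 13 pluripotency regulators at the floor (green triangles) and the 10 Nodal pathway genes (red); the solid line is equality and dashed lines are 2-fold. Tdgf1 and Lefty2 lie close together, well below the lower dashed line, Nodal and Lefty1 lie just below it, and Acvr2b lies on it at values under the floor.

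The receptor genes were not called. Acvr1b, which encodes the type I activin receptor ALK4, stood at 95 with dox and 112 without dox, a log2 ratio of -0.22. Acvr2b, a type II receptor gene, stood at 12 with dox and 34 without dox. It was under the floor in both libraries and received no call, and its ratio of 2.00-fold lower rests on small values. Acvr1b lies on chromosome 15, from 101174067 to 101213684, and Acvr2b on chromosome 9, from 119402118 to 119434995, where the annotation places Gm47320 within it on the opposite strand. Acvr2a, the other type II receptor gene, stood at 109 with dox and 87 without dox, a log2 ratio of 0.29.

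Both effector Smads were within 2-fold. Smad2 stood at 131 with dox and 128 without dox, a log2 ratio of 0.03, and with the trend of the ratios on transcript length removed it was -0.24. Smad3 stood at 163 with dox and 127 without dox, a log2 ratio of 0.34. Smad4, the partner that they share with the BMP branch, stood at 211 with dox and 162 without dox, and Foxh1, the forkhead cofactor that takes Smad2 to many Nodal targets, at 132 with dox and 124 without dox. The values of the transducers thus differed far less than those of the ligand, co-receptor and antagonists, as the plot by role shows.

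The intracellular inhibitors lay on opposite sides of 0. Smad7, which blocks the type I receptor and recruits ubiquitin ligases to it, stood at 154 with dox and 208 without dox, a log2 ratio of -0.41. Skil, which encodes SnoN, a repressor that binds Smad2 and Smad3 in the nucleus, stood at 186 with dox and 90 without dox. Its log2 ratio was 0.97, or 1.96-fold higher, just under the threshold. It was past 2-fold with a pseudocount of 1, at 1.04, and when ratios were centred on the median gene, at 1.05. With a pseudocount of 50 it was lower, at 0.75, as it was with the length trend removed, at 0.74. Of the 5 genes above that are known targets of the pathway, Nodal, Lefty1 and Lefty2 were lower with dox. Smad7 was within 2-fold, and Skil was higher with dox by just under 2-fold. Smad2 and Smad7 lie on chromosome 18, Smad3 on chromosome 9 and Skil on chromosome 3.

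**Figure D3:**
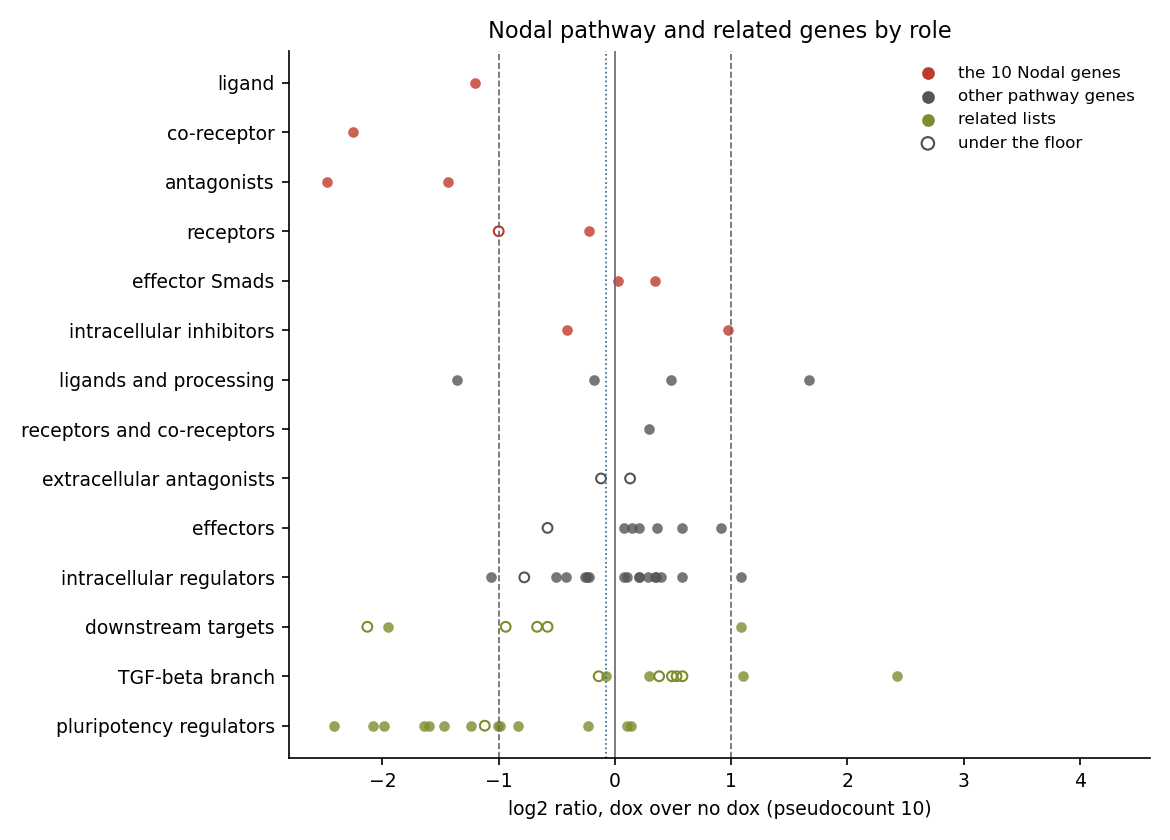
Log2 ratio of dox over no dox for each gene, by role, with filled circles for genes at the floor of 50 and open circles for genes under it; dashed lines mark 2-fold and the dotted line the median of all genes, -0.08. The ligand, co-receptor and antagonists lie to the left of -1, the effector Smads lie near 0 and most pluripotency regulators lie to the left of 0.

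Of 41 further genes of the pathway 34 had a row and 27 reached the floor. Of these, 2 were lower with dox, 2 were higher and 23 were within 2-fold, with a median log2 ratio of 0.21. Over all genes at the floor 5.49% were lower and 9.23% higher, with a median of -0.08, so that both counts are near the shares over all genes. Among ligands and their processing enzymes, Gdf3, a TGF-beta superfamily ligand of ES cells that also uses Cripto, stood at 168 with dox and 447 without dox, 2.57-fold lower. Furin, the proprotein convertase that cleaves the Nodal precursor, was higher, at 518 with dox and 156 without dox, 3.18-fold. Pcsk6, the convertase known as PACE4 that also cleaves it, stood at 262 with dox and 298 without dox. The activin subunit genes Inhba and Inhbb were listed at 0 in both libraries.

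None of the effector and cofactor genes was called: the 6 at the floor had log2 ratios above 0, the largest that of Wwtr1, which encodes the Smad-binding coactivator TAZ, at 374 with dox and 195 without dox. With the length trend removed, Crebbp, a histone acetyltransferase gene, was at -0.12. Of 16 intracellular regulators at the floor, Tgif1, a homeodomain repressor that binds Smad2 and Smad3, was lower, at 185 with dox and 400 without dox, 2.10-fold. Pmepa1, a feedback inhibitor that the pathway switches on and that keeps Smad2 and Smad3 from the receptor, was higher, at 180 with dox and 80 without dox, 2.11-fold. The other 14 were within 2-fold, among them Trim33, at 423 with dox and 365 without dox, and Nomo1, at 405 with dox and 332 without dox. Drap1, at 389 with dox and 306 without dox, and Ppm1a, at 294 with dox and 396 without dox, were within it too. Of the 16 regulators, 10 had log2 ratios above 0 and 6 below 0, but this majority rests on small ratios. With the length trend removed, Trim33, at -0.08, Rnf111, at -0.01, and Nedd4l, at -0.05, were below 0 too, and most of the 16 then were. The extracellular antagonist Fst, follistatin, was under the floor, at 38 with dox and 42 without dox. With ratios centred on the median gene, Tgif1 was within 2-fold.

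Of 14 downstream target genes of the pathway in the embryo or ES cells, 6 had a row and 2 reached the floor. T, which encodes Brachyury, stood at 24 with dox and 121 without dox, 3.85-fold lower, and Pmepa1, also in the list above, was the other. Under the floor, Gsc, which encodes goosecoid, stood at 1 with dox and 38 without dox, Eomes at 18 with dox and 32 without dox, and Hhex at 12 with dox and 25 without dox. The values of these genes are small.

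The TGF-beta branch, which shares Smad2 and Smad3, had 4 of 9 genes at the floor, 2 of them higher with dox and 0 lower. Over all genes at the floor 9.23% were higher and 5.49% lower. Ltbp1, which encodes a binding protein of latent TGF-beta, stood at 205 with dox and 30 without dox, 5.38-fold higher, and the receptor gene Tgfbr2 at 67 with dox and 26 without dox, 2.14-fold higher, though at a log2 ratio of 0.83 with the length trend removed. Tgfbr1 stood at 138 with dox and 146 without dox, and the ligand genes Tgfb1, Tgfb2 and Tgfb3 were under the floor, at no more than 16 in either library.

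Regulators of pluripotency, some of which are known to bind at the ligand, co-receptor and antagonist genes, were mostly lower. Of the 13 of 14 that reached the floor 8 were lower with dox, 0 were higher and 5 were within 2-fold, with a median log2 ratio of -1.24. The shares over all genes at the floor were 5.49% lower and 9.23% higher. Nanog stood at 623 with dox and 2508 without dox, a log2 ratio of -1.99, and Prdm14 at 50 with dox and 177 without dox. Of the other lower genes, Esrrb, Klf4, Nr5a2, Sall4 and Zic2 had log2 ratios from -2.42 to -1.01, and Sall4, the nearest to the threshold, was at -0.94 with centred ratios. Pou5f1 and Sox2 were within 2-fold, Sox2 at 521 with dox and 1042 without dox with a log2 ratio of -0.99. The part of these regulators in the values of the Nodal genes was not tested.

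Most markers of other cell types were under the floor in both libraries, apart from Krt7 and T. Of 7 feeder fibroblast markers 0 reached the floor, with summed values of 70 with dox and 23 without dox. Col3a1 stood at 39 with dox and 2 without dox, and Col1a2 at 19 with dox and 8 without dox. Postn stood at 8 with dox and 11 without dox, Col1a1 and Thy1 were at no more than 3 in either library, and Lum and Dcn were at 0 in both. Of 4 primitive endoderm markers with a row 0 reached it, with sums of 25 with dox and 24 without dox. Of 4 trophectoderm markers with a row 1 did, the keratin gene Krt7, at 374 with dox and 0 without dox, and the 4 summed to 431 with dox and 29 without dox. The 3 mesendoderm markers with a row, T, Gsc and Eomes, are also among the target genes given above. Only T reached the floor, and it was lower with dox. The 3 summed to 43 with dox and 191 without dox, of which T made up 24 and 121. The part of cells of another type in the lower Nodal, Tdgf1, Lefty1 and Lefty2 values was not tested.

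**Figure D4:**
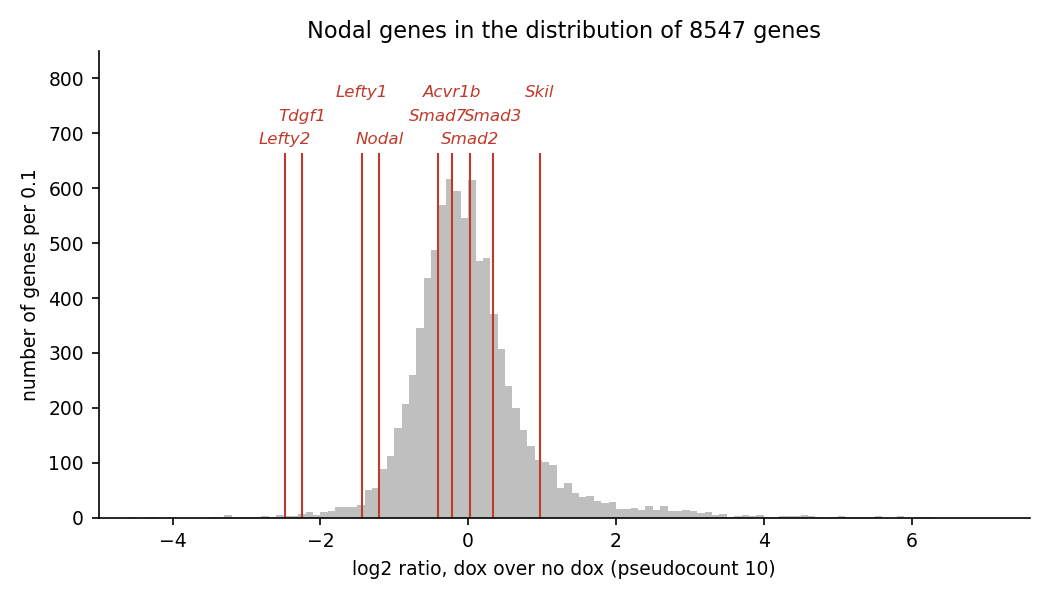
Number of genes by log2 ratio of dox over no dox, in steps of 0.1, for 8547 genes at the floor (grey), with red lines at the 9 Nodal pathway genes that reached it. Lefty2 and Tdgf1 lie in the thin left tail, Lefty1 and Nodal at its edge, and the receptor, Smad and inhibitor genes within the bulk, with Skil on its right side.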

How the data were processed

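Per the labels' protocols, RNA was isolated with TRIzol, TruSeq RNA libraries were prepared, and a NextSeq 500 was used for sequencing. bcl2fastq, Bowtie2 and RSEM and the build mm10 are named in the submitters' processing notes. The versions, annotation and normalization were not given in the sources used here. Since both libraries shared their quartiles and 75.5% of the sorted positions held equal values, the deposited numbers were treated as a score, that is, as values the authors had already normalized and rounded. No count model was used, and the depth per library is unknown.

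The log2 ratio used a pseudocount of 10, a floor of 50 on the larger value and a threshold of 2-fold. With 1 library per group no test was made. The genes, the lists and these settings were chosen with earlier results of these data known. All 10 genes are named, with called genes of each further list, or else up to 4 with the largest values. A few of these and of the sequences are not reported here. Some genes under the floor and the count of CG dinucleotides were chosen after the values were seen. Gene coordinates and transcripts came from GENCODE M21 on GRCm38, which matched 14139 of 14259 symbols, and promoters from RefSeq on GRCm38.p6. The length trend was removed with lowess (fraction 0.3) and the median kept. The steps were tested on simulated data. No column of sample values was left unused (0). Python 3.11.15, numpy 2.4.6, pandas 2.3.3, statsmodels 0.14.6 and matplotlib 3.10.9 were used.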

Additional observations from a re-analysis of the deposited data

How the results depend on the processing

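Nodal, Tdgf1, Lefty1 and Lefty2 were called lower under pseudocounts of 1 and 10, with ratios centred on the median gene and with the length trend removed. Nodal alone lost its call, at -0.90, with a pseudocount of 50. Of 36 recomputed log2 ratios of the 9 genes at the floor, 32 kept their sign and their side of the threshold. The others were Nodal, Skil at 1.04 and 1.05, as given above, and Smad2, whose sign differed at -0.24 with the length trend removed. Acvr2b, under the floor and exactly at 2-fold, was at -1.43 with a pseudocount of 1, -0.44 with 50 and -0.92 with centring. With 1 library per group no library could be left out, and depth is unknown, so that counting error could not be given for genes with small values.

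The count of higher genes among the 10 was 1, Skil, with a pseudocount of 1, with centring and at 1.5-fold, and 0 otherwise. The count of lower genes was 2 with a floor of 250, which only Tdgf1 and Lefty2 reached, and 2 at 4-fold, and with no floor it was 5, as Acvr2b then entered. Among the other pathway genes 1 was lower and 1 higher with a pseudocount of 50, 1 was lower with centring, 1 was higher with a floor of 250, and at 4-fold 0 were lower and 0 higher. Over all 8547 genes at the floor, 171 were lower and 498 higher with a pseudocount of 50. At 1.5-fold these counts were 1511 and 1425, and at 4-fold they were 55 and 266. They were 796 and 1255 of 13632 genes without a floor, and 147 and 298 of 3118 genes under a floor of 250. No paired analysis was possible because each group has 1 library.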

Other observations

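Protein-coding genes that lie next to the 4 lower genes were looked up after the values were seen. Beside Lefty2, Sde2 stood at 250 with dox and 409 without dox, a log2 ratio of -0.69, and beside Lefty1, Tmem63a was under the floor at 30 with dox and 37 without dox. Beside Nodal, Pald1 stood at 193 with dox and 405 without dox, a log2 ratio of -1.03. Eif4ebp2, whose nearer end lies 3153 bases beyond the end of Nodal, stood at 291 with dox and 265 without dox. Beside Tdgf1, Lrrc2 stood at 30 with dox and 63 without dox, a log2 ratio of -0.87, and Als2cl was higher, at 83 with dox and 24 without dox, a log2 ratio of 1.45. The neighbours named here thus lay on both sides of 0.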
